A study of Rattus norvegicus with 11 samples.

Results

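The 10 genes described here are the protein-coding genes of the rat mitochondrial genome that were selected by Ensembl ID: mt-Nd1 (ENSRNOG00000030644), mt-Nd2 (ENSRNOG00000031033), mt-Nd4 (ENSRNOG00000029707), mt-Nd5 (ENSRNOG00000029971) and mt-Nd6 (ENSRNOG00000029042) of complex I, mt-Cyb (ENSRNOG00000031766) of complex III, mt-Co1 (ENSRNOG00000034234), mt-Co2 (ENSRNOG00000030371) and mt-Co3 (ENSRNOG00000030700) of complex IV, and mt-Atp6 (ENSRNOG00000031979) of complex V. All 10 IDs were found among the 32623 gene IDs of the count table, and all 10 passed the filter on low counts. The ID list came with these gene symbols. The gene table used here carries no Ensembl ID, so the pairing of IDs and symbols was not checked.

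Mitochondria keep a small genome of their own, which encodes core subunits of the respiratory chain, and the far more numerous other subunits are encoded in the nucleus. Both strands of the mitochondrial genome are transcribed as long precursors that are cut into separate mRNAs, so levels of these mRNAs are set by transcription and by the stability of each message. Most of the mRNAs come from the heavy-strand precursor, whereas mt-Nd6 is the mRNA of the opposite strand. Neurons and glia of the spinal cord depend on oxidative phosphorylation, and damage to mitochondria is a much studied feature of the painful neuropathy that paclitaxel, a microtubule-stabilising chemotherapy drug, can cause.

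RNA came from the ipsilateral spinal cord of adult male rats of 350 to 400 g. The naive group (3 libraries, "Naive") received neither drug nor electrode. The sham group (5 libraries, "PTX+Sham SCS") received intraperitoneal paclitaxel, 1.5 mg/kg per injection, with injections on days 1, 3, 5 and 7, and carried an electrode for spinal cord stimulation (SCS) that was not used. The stimulated group (3 libraries, "PTX+SCS") received the same drug and electrode with stimulation at 50 Hz, 0.2 ms pulses and 80% of MoT, an abbreviation the labels do not spell out. Drug and electrode are shared by both treated groups, so their separate contributions cannot be told apart. The libraries are named by group and number: naive 1 to 3, sham 1 to 5, SCS 1, SCS 2 and SCS 5. Total counts were 11243288 to 56775931 per library. Whether marker genes of the spinal cord were present was not tested, because IDs other than those of the 10 genes could not be matched to symbols.

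The 10 mitochondrial genes took between 5.91% and 8.16% of all counts in a library. Their summed share was 7.07% in naive 1, 6.32% in naive 2 and 6.90% in naive 3. In the sham libraries it was 8.16%, 6.73%, 7.11%, 6.49% and 7.22% (sham 1 to 5). In the stimulated libraries it was 7.86% in SCS 1, 6.27% in SCS 2 and 5.91% in SCS 5. The groups overlapped. The highest share was in sham 1 and the next in SCS 1, and the lowest was in SCS 5 and the next in SCS 2. Group means were 6.77% ± 0.39 in naive (SD, n = 3), 7.14% ± 0.64 in sham (SD, n = 5) and 6.68% ± 1.04 in stimulated libraries (SD, n = 3). The mean share in sham was 1.06 times that in naive, stimulated was 0.935 times sham, and stimulated was 0.988 times naive. Each of these departures from 1 was smaller than the spread between libraries, which was 0.0842, 0.111 and 0.116 on the same scale (1 pooled SD). That SD describes single libraries and is not the error of a ratio of means, and the ratios were not tested. Without SCS 1 the ratio of stimulated to sham was 0.853, a departure larger than the spread of 0.111, which was taken with SCS 1 included. Over all alternatives tried for the share, this ratio ran from 0.853 to 0.989. Sham to naive ran from 1.018 to 1.081, and stimulated to naive from 0.901 to 1.045, on both sides of 1. In bulk tissue a lower share from fewer cells rich in mitochondria and one from less mitochondrial RNA per cell cannot be told apart.

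**Figure D1:**
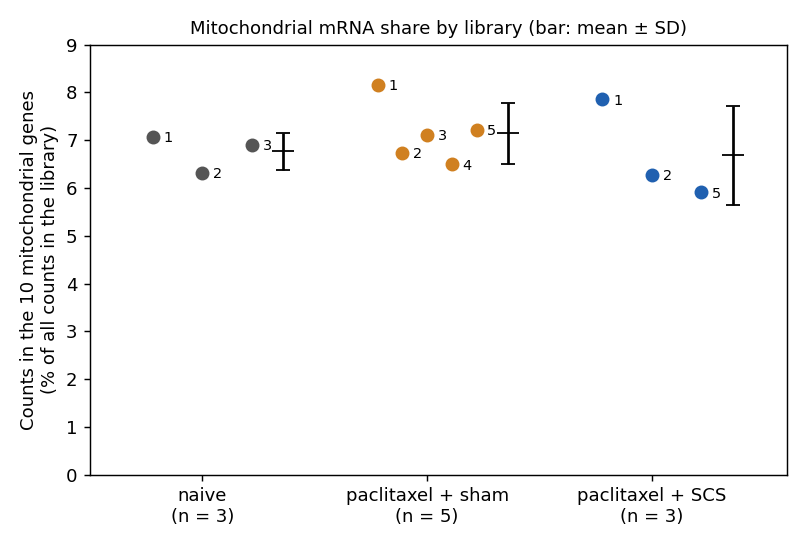
Summed counts of the 10 mitochondrial genes as a percent of all counts (y axis) in each library, by group (x axis). Points are libraries with their replicate numbers and bars are the mean ± SD. The groups overlap, with sham 1 at 8.16% and SCS 1 at 7.86% at the top and SCS 5 at 5.91% at the bottom.

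Counting error was small beside these differences between libraries. The 95% Wilson interval of the share was 8.15% to 8.17% in sham 1 and 6.48% to 6.51% in sham 4, the library with the fewest counts. These intervals cover counting error only and treat each count as independent. The counts carry no molecular identifiers, so repeated reads of the same molecule cannot be told apart, and the intervals may be too narrow.

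The genes differed widely in how many counts they drew. mt-Co1, the catalytic subunit of cytochrome c oxidase, held 1.88% to 2.38% of all counts and was the first or second gene by count in each library. mt-Atp6, a proton channel subunit of ATP synthase, and mt-Co3, another core subunit of cytochrome c oxidase, each ranked between 4 and 6. mt-Cyb, the cytochrome b of complex III, ranked between 6 and 8, and mt-Co2, which takes electrons from cytochrome c, between 7 and 9. mt-Nd1 and mt-Nd2, membrane subunits of complex I, ranked between 7 and 12. mt-Nd5, another proton-pumping subunit of complex I, held 0.292% to 0.420% of counts and ranked between 12 and 18. The last pair lay far lower. mt-Nd4, also a membrane subunit of complex I, had 2644 to 13713 counts per library (0.0197% to 0.0325%), and mt-Nd6 had 580 to 2783 (0.00371% to 0.00753%). These are counts that were not divided by gene length, so they do not order the genes by level. How reads that also match nuclear copies of mitochondrial sequence were counted is not given in the sources used here. This touches each of the 10 genes, but it need not touch them equally. mt-Nd4 held far fewer counts than mt-Nd1 (0.459% to 0.657%) or mt-Cyb (0.649% to 0.924%). Whether mt-Nd4 lost more of such reads than the other genes was not tested.

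Summed by complex, the 3 complex IV genes held 3.62% ± 0.21 of counts in naive (SD, n = 3), 3.80% ± 0.26 in sham (SD, n = 5) and 3.56% ± 0.49 in stimulated libraries (SD, n = 3). The 5 complex I genes held 1.52% ± 0.09, 1.65% ± 0.21 and 1.52% ± 0.27 in the same order. The single complex III gene held 0.779% ± 0.073, 0.797% ± 0.073 and 0.752% ± 0.128, and the single complex V gene 0.850% ± 0.033, 0.904% ± 0.108 and 0.840% ± 0.150. In each complex the sham mean was the highest of the 3, and in each the ranges of the groups overlapped. For complex III sham 1 stood at 0.924%, against 0.743% to 0.784% in the other sham libraries. The complexes are not independent, because most of these genes moved together from library to library.

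Paclitaxel with an inactive electrode was compared with no treatment by edgeR's quasi-likelihood test over all genes that passed the filter on low counts, with p-values adjusted over all of them by the Benjamini-Hochberg method and a threshold of 0.05. Levels are given as CPM, counts scaled to the TMM-adjusted size of the library. None of the 10 genes passed in sham against naive (edgeR adjusted p 0.764 to 0.979), where 0.14% of the 15758 genes tested did. None had an unadjusted p under 0.05, a level reached by 7.98% of all genes tested, and none passed with DESeq2 or with limma-voom, with or without quality weights. In none of the 10 did the sham and naive libraries separate without overlap in log2 CPM, as they did in 7.03% of all genes tested. The log2 fold changes were small, from -0.038 to 0.15, with a median of 0.097 beside 0.0051 over all genes tested. Of the 10 values 9 were above 0.

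mt-Co1 stood at 21982, 19514 and 21296 CPM in naive 1 to 3 and at 24408, 20934, 22084, 21146 and 23119 CPM in sham 1 to 5. Sham 1, sham 3 and sham 5 lay above the naive range and the other sham libraries within it. Its log2 fold change was 0.094 ± 0.090 (SE, edgeR adjusted p = 0.819), and the 95% interval of the fold ran from 0.934 to 1.22. mt-Nd1 had the largest fold change of the 10. It read 5098, 4913 and 5416 CPM in naive 1 to 3 and 6808, 5243, 5563, 5170 and 5749 CPM in sham 1 to 5. Its log2 fold change was 0.15 ± 0.11 (SE, edgeR adjusted p = 0.764), with a 95% interval of the fold from 0.938 to 1.31.

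mt-Nd2 varied most among the abundant genes. It read 7010, 5671 and 6371 CPM in naive 1 to 3, and 9181 CPM in sham 1 against 6116, 6512, 5549 and 6853 CPM in sham 2 to 5. Sham 1 was above all other libraries. Sham 4 was the lowest, nearly level with SCS 5 at 5550 CPM. Against naive its log2 fold change was 0.11 ± 0.15 (SE, edgeR adjusted p = 0.889), and without sham 1 it was -0.011. Without sham 1 the values of mt-Co2 (-0.025) and mt-Cyb (-0.018) also turned below 0 and that of mt-Nd6 turned above 0 (0.050), so that 7 of the 10 were above 0, with a median of 0.038.

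**Figure D2:**
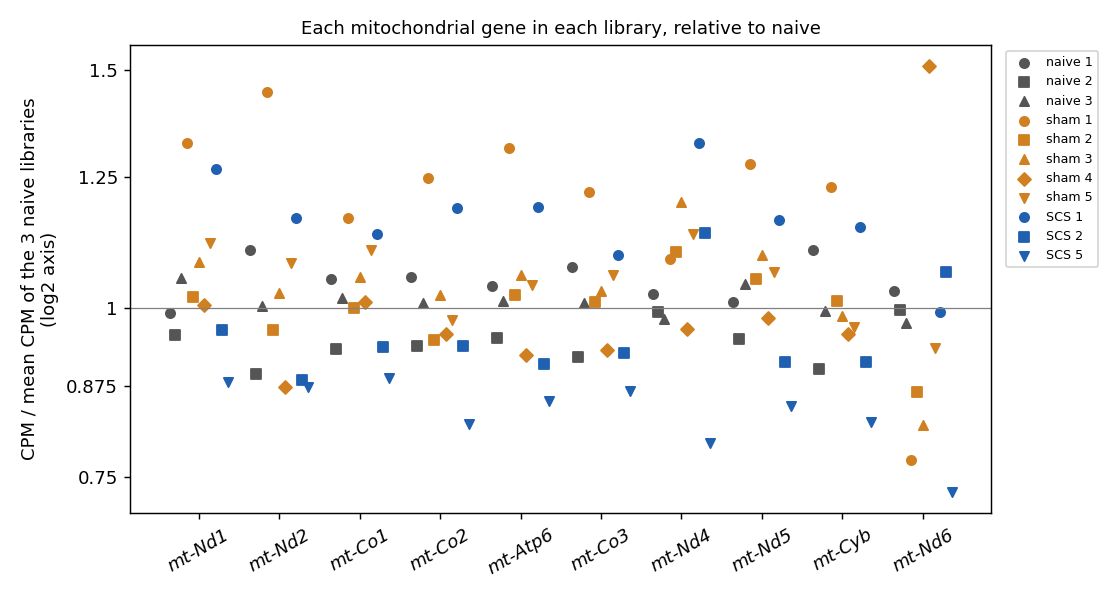
CPM of each gene in each library divided by its mean in the 3 naive libraries (log2 y axis), with colours for groups and shapes for replicate numbers. Sham 1 and SCS 1 lie at the top and SCS 5 at or near the bottom for most genes, while mt-Nd6 is highest in sham 4 and low in sham 1.

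Stimulation after paclitaxel was compared with the inactive electrode after paclitaxel. None of the 10 genes passed in stimulated against sham (edgeR adjusted p 0.374 to 0.965), although 3.57% of all genes tested did. None had an unadjusted p under 0.05, which 20.1% of all genes tested had, and none passed with DESeq2 or either limma-voom fit. No gene of the 10 separated the groups without overlap, against 10.2% of all genes tested. All 10 log2 fold changes were below 0, from -0.17 to -0.015, with a median of -0.11 beside -0.013 over all genes tested. The 10 values are not independent of each other, because most of these genes moved together from library to library, as described below.

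mt-Nd5 had the lowest p-value of this comparison. It read 4353, 3580, 3728, 3345 and 3624 CPM in sham 1 to 5, and 3957 CPM in SCS 1, 3104 CPM in SCS 2 and 2883 CPM in SCS 5. SCS 1 lay within the sham range and the other stimulated libraries below it. The log2 fold change was -0.17 ± 0.10 (SE, edgeR adjusted p = 0.374), with a 95% interval of the fold from 0.766 to 1.03. mt-Co1 was at 23757 CPM in SCS 1, 19580 CPM in SCS 2 and 18578 CPM in SCS 5, and its log2 fold change from sham was -0.11 ± 0.090 (SE, edgeR adjusted p = 0.519, interval of the fold 0.809 to 1.06).

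mt-Atp6 read 11167, 8690, 8985, 7847 and 8829 CPM in sham 1 to 5 and 10089, 7722 and 7245 CPM in SCS 1, SCS 2 and SCS 5. Its log2 fold change was -0.12 ± 0.12 (SE, edgeR adjusted p = 0.606). mt-Co3 gave -0.12 ± 0.096 (SE, edgeR adjusted p = 0.512), with means of 8776 ± 889 CPM in the sham group (SD, n = 5) and 8058 ± 982 CPM in the stimulated group (SD, n = 3). For both genes SCS 1 lay within the sham range, and SCS 2 and SCS 5 lay below it.

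These values depended on single libraries. Without SCS 1 the median log2 fold change of the 10 genes in stimulated against sham was -0.22, 6 of them had an unadjusted p under 0.05, and none passed after adjustment (lowest edgeR adjusted p 0.0802, for mt-Nd5 at a log2 fold change of -0.30). Of all genes tested, 510 passed in that fit. The share of all genes with an unadjusted p under 0.05 was not taken there. It was 20.1% with all 11 libraries. The 6 genes are not 6 separate results, because most of the 10 moved together. Without SCS 5 the median was -0.017 and 4 of the 10 values were above 0. Without sham 1 the median was -0.030.

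**Figure D3:**
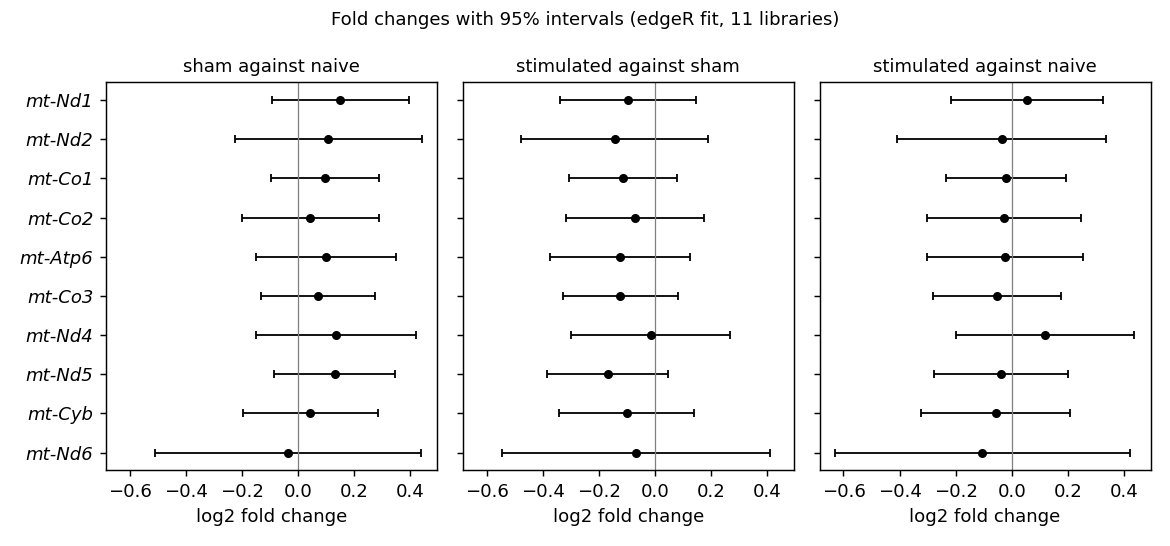
log2 fold change of each gene (x axis) in the 3 comparisons, with 95% intervals from the edgeR fit over 11 libraries. Each interval includes 0, and those of mt-Nd6 are the widest.

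Stimulated libraries were also set against naive ones, which differ in drug, electrode and stimulation together. None of the 10 genes passed (edgeR adjusted p 0.632 to 0.923), although 14.9% of all genes tested did, and none passed with DESeq2 or either limma-voom fit. None had an unadjusted p under 0.05, which 29.3% of all genes tested had. No gene of the 10 separated the groups without overlap, against 36.3% of all genes tested. The log2 fold changes ran from -0.11 to 0.12, with a median of -0.032 beside -0.017 over all genes tested, and 8 of the 10 were below 0. This comparison shares its libraries with the other 2, so the 3 sets of values are not independent.

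The lowest p-value in stimulated against naive was that of mt-Nd4. It read 251, 243 and 240.1 CPM in naive 1 to 3, and 324 CPM in SCS 1, 278 CPM in SCS 2 and 194 CPM in SCS 5. SCS 1 and SCS 2 lay above the naive libraries and SCS 5 below them. The log2 fold change was 0.12 ± 0.14 (SE, edgeR adjusted p = 0.632). Without SCS 5 it was 0.30 and passed (edgeR adjusted p = 0.0326). In that fit 2438 of all genes tested passed, beside 2342 (14.9%) with all 11 libraries. The call of mt-Nd4 was the only one among the 10 genes in any of the 21 alternatives tried. Whether the way reads of mt-Nd4 were counted bears on this call was not tested. In the sham libraries mt-Nd4 read 266, 269, 293, 236 and 278 CPM (sham 1 to 5), and its log2 fold change from naive was 0.13 ± 0.13 (SE, edgeR adjusted p = 0.823).

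For each of the 10 genes the relative spread among the stimulated libraries exceeded the size of its mean difference from either other group. SCS 1 lay above the highest naive library for 9 of the 10 genes, and SCS 5 lay below the lowest naive library for all 10. SCS 2 lay above the naive range for 2 genes and below it for 3. In sham 1 to 5 the number of genes above the naive range was 9, 2, 5, 1 and 5, and the number below it was 1, 1, 1, 3 and 1. The range rests on 3 naive libraries, and the same counts were not made over all genes. The coefficient of variation (SD over mean of CPM) was 2.22% to 10.5% across the 10 genes in naive, 6.47% to 30.8% in sham and 12.2% to 24.8% in stimulated libraries. A test of this difference in spread was not made.

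Compared with other genes of high count, the mitochondrial genes varied more within groups. The SD of log2 CPM within groups was 0.12 for mt-Co1, 0.14 for mt-Co3, 0.16 for mt-Nd5, and 0.18 to 0.24 for mt-Nd1, mt-Nd2, mt-Co2, mt-Atp6, mt-Nd4 and mt-Cyb. The median was 0.088 over the 2102 genes with a mean of at least 100 CPM, a group that holds these 9 genes. Of the genes at that level outside the 10, 21% had a larger SD than mt-Co1 and 2.63% had a larger SD than mt-Nd2. mt-Nd6, with a mean of 48.6 CPM, had an SD of 0.31.

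The variation was largely shared. In 8 of the 10 genes sham 1 was the highest library and SCS 1 the second highest. mt-Nd4, which was highest in SCS 1, and mt-Nd6, highest in sham 4, were the exceptions. SCS 5 was the lowest library for 9 genes, and sham 4, nearly level with SCS 5, for mt-Nd2. Relative to the naive mean, those 8 genes stood at 1.17 (mt-Co1) to 1.45 times (mt-Nd2) in sham 1, at 1.10 (mt-Co3) to 1.27 times (mt-Nd1) in SCS 1 and at 0.821 (mt-Co2) to 0.888 times (mt-Co1) in SCS 5. The ratio of the highest to the lowest library over all 11 was 1.31 for mt-Co1 and 2.07 for mt-Nd6, with the other 8 genes between 1.40 and 1.67.

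Across the 11 libraries, the 28 pairs among the 8 genes other than mt-Nd4 and mt-Nd6 had a Pearson r of log2 CPM between 0.856 and 0.972 (median 0.928). Taken as deviations from the group means the median was 0.934. Without sham 1 and SCS 5, the libraries whose mitochondrial share lay farthest from the median, it was 0.851, with a lowest pair of 0.653. mt-Nd4 followed the 8 less closely, at r between 0.471 and 0.684, and mt-Nd6 did not follow them, at r between -0.37 and -0.045. The part of read counting in the weaker r values of mt-Nd4 was not tested. These values describe the libraries. Each point is a library, all genes of a library share its RNA, depth and scaling, and the 8 genes were grouped after their values were seen.

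**Figure D4:**
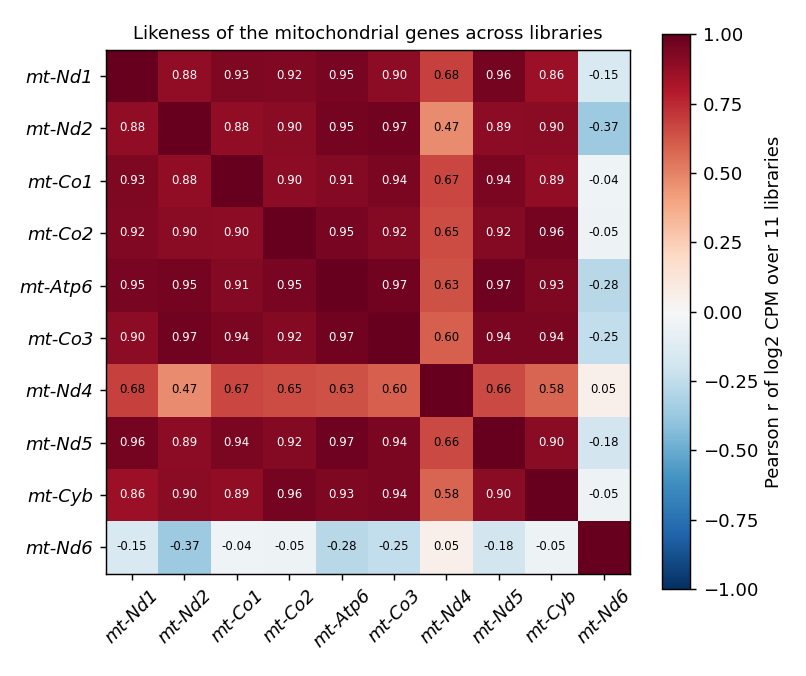
Pearson r of log2 CPM for each pair of genes over the 11 libraries (colour scale from -1 to 1). The 8 abundant genes form a block at 0.856 or more, mt-Nd4 lies at 0.471 to 0.684 with them, and mt-Nd6 lies below 0 with them.

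The proportions of the 8 genes to each other changed less than their shares of all counts. As a share of the counts of the 10 genes, mt-Co1 made up 28.9% (sham 1) to 32.5% (sham 4), mt-Atp6 12.04% to 13.2%, mt-Co3 11.7% to 12.6%, mt-Cyb 10.5% to 12.03%, and mt-Co2 9.39% to 10.4%. mt-Nd2 made up 8.52% (sham 4) to 10.9% (sham 1), mt-Nd1 7.14% to 8.32%, and mt-Nd5 4.82% to 5.29%. The coefficient of variation of these proportions over the 11 libraries was 2.11% (mt-Co3) to 6.41% (mt-Nd2) in the 8 genes. As shares of all counts in the library the same genes varied by 7.85% (mt-Co1) to 15.4% (mt-Nd2). The other 2 genes varied more in proportion: mt-Nd4 made up 0.314% to 0.444% (coefficient of variation 10.4%, against 13.1% as a share of all counts), and mt-Nd6 0.0457% to 0.116% (25.5%, against 21.5%). Group means of the proportion were close for mt-Co1, at 30.9% ± 0.2 in naive (SD, n = 3), 31.2% ± 1.4 in sham (SD, n = 5) and 31.2% ± 0.8 in stimulated libraries (SD, n = 3). For their size they lay farther apart in other genes. In the same order they were 7.615% ± 0.418, 7.929% ± 0.123 and 8.0% ± 0.287 for mt-Nd1, and 0.363% ± 0.021, 0.375% ± 0.039 and 0.397% ± 0.057 for mt-Nd4.

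**Figure D5:**
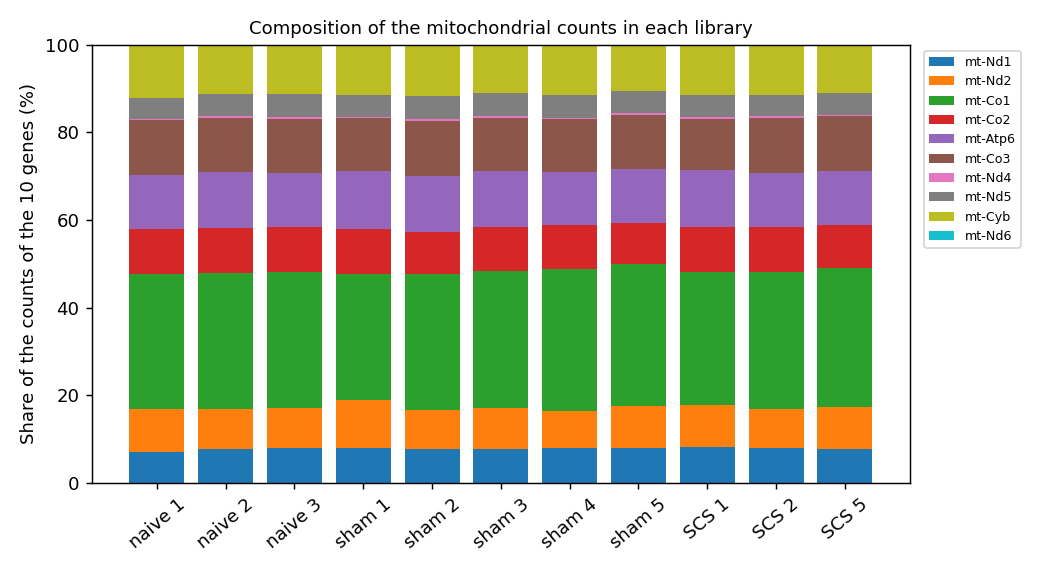
Share of each gene in the summed counts of the 10 genes (y axis, percent) for each library (x axis). mt-Co1 makes up 28.9% to 32.5% in each library, and mt-Nd4 and mt-Nd6 are too small to see clearly.

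mt-Nd6, the complex I subunit read from the opposite strand, had another order of libraries than the other genes. It read 51.5, 49.8 and 48.7 CPM in naive 1 to 3, then 38.6, 43.4, 41.0, 75.6 and 46.8 CPM in sham 1 to 5, and 49.7, 53.2 and 36.6 CPM in SCS 1, SCS 2 and SCS 5. Sham 4 was the highest of the 11 libraries, and the 4 other sham libraries were below all 3 naive ones. Its log2 fold change was -0.038 ± 0.21 in sham against naive (SE, edgeR adjusted p = 0.979) and -0.068 ± 0.21 in stimulated against sham (SE, edgeR adjusted p = 0.899). Without sham 4 these were -0.23 and 0.14, and neither passed. The high value in sham 4 rests on 847 counts, or 0.00753% of the library (95% Wilson interval 0.00704% to 0.00806%), against 0.00472% (0.00442% to 0.00503%) in sham 5. The intervals do not overlap, but they treat each count as independent. In sham 4 the summed share of the 10 genes was the lowest of the sham group, at 6.49%. In mammals the mt-Nd6 message is known to lack the stable poly(A) tail of the other mitochondrial mRNAs, and the libraries were made after poly(A) selection; the part of this in its values was not tested. The strand setting of the counting is not given in the sources used here, so reads of mt-Nd6 and reads from the opposite strand at the same place cannot be told apart.

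Outside the 10, the 2 gene IDs whose log2 CPM followed the summed share of the 10 genes most closely were ENSRNOG00000031053 (Pearson r 0.967 over 11 libraries, mean 605 CPM) and ENSRNOG00000037627 (r 0.948, mean 55.1 CPM), out of 10292 genes with a mean of at least 10 CPM. The gene table does not pair these IDs with symbols. Only the 10 genes were left out of this search. Other mRNAs of the mitochondrial genome (mt-Nd3, mt-Nd4l and mt-Atp8) were not, so these IDs may belong to the same genome. The r values describe libraries that share depth and scaling within each point. Nuclear genes of the respiratory chain and genes that maintain or transcribe mitochondrial DNA were not analysed here, because 0 of the 47357 rows of the gene table carry an Ensembl ID.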

How the data were processed

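Poly(A)-selected RNA of 11 spinal cord libraries was analysed. The authors deposited raw counts for each Ensembl gene ID and BAM file. Per the submitters' processing notes, HISAT2, featureCounts, DESeq2 and the build rn6 were used. Not given in the sources used here: versions, annotation release, strand setting and the handling of multimapping reads. Columns were matched by sample title, and 17 further columns were not used. Groups follow the group label.

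The 10 genes were taken by Ensembl ID. They, the gene lists and the tests were chosen with earlier results of these data known. By rule, all 10 genes are named, with at most 2 bare IDs of like pattern. Planned lists of cell type markers and nuclear mitochondrial genes could not be matched.

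Low counts were filtered with filterByExpr of edgeR 4.0.16 (R 4.3.3), leaving 15758 genes with at least 99.9259% of the counts of each library. All 11 libraries entered 1 quasi-likelihood fit (TMM scaling, robust, a term per group, 8 residual degrees of freedom), tested two-sided. SE is the log2 fold change over the square root of F, and intervals are 95%. Log2 CPM used a prior count of 2. Nothing in the labels says that libraries came from separate rats. The p-values therefore measure spread among these libraries, which may be technical. Between libraries of 1 group the chi-square per degree of freedom was 4.98 to 27.8, above the sampling noise of 1 library deposited again. The fit was tested on simulated data. Alternatives covered scaling, filter, tool (DESeq2 1.42.0, limma 3.58.1), fits of 2 groups, a replicate block and leaving out each library.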

Additional observations from a re-analysis of the deposited data

Results flagged for a closer look

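In the sham group 3 of 11 measures (the 10 genes and their summed share) had a library whose gap to its nearest neighbour took up more of the group's range than Dixon's 95% critical value for 5 libraries, 0.71. Chance alone would mark about 1 in 20 such groups. mt-Cyb was high in sham 1, at 9577 CPM against 7454 to 7878 CPM in the other sham libraries (gap over range 0.80). mt-Co2 was also high in sham 1, at 8567 CPM against 6496 to 7018 CPM (0.748). mt-Nd6 was high in sham 4, at 75.6 CPM against 38.6 to 46.8 CPM (0.78). The first pair rests on the same library, and the genes of a library are not independent.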

How the results depend on the processing

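By edgeR and in each of the 21 alternatives, none of the 10 genes passed in either comparison with sham libraries. In stimulated against naive, leaving out 1 library gave 0 to 1, the 1 being mt-Nd4 without SCS 5. That fit called 2438 of all genes tested. Each ratio of mean shares moved by less than 1 SD of the spread between libraries, but without SCS 1 stimulated to sham was 0.853, farther from 1 than the spread of 0.111. At the other end, an alternative brought that ratio to 0.989. Over all genes, DESeq2 called 133 (sham against naive) and 1136 (stimulated against sham), quality weights gave 44 in the former and the fit of 2 groups only gave 140 in the latter. The cause was not tested. Leaving out 1 library gave 6 to 56, 36 to 1057 and 1018 to 2786 genes in sham against naive, stimulated against sham and stimulated against naive. A replicate block left 9, 5 and 672 genes in the same order, and none of the 10. The labels give replicate numbers but no pairing, so the numbers were not read as pairing. Deviations of same-numbered libraries correlated at -0.17 to 0.13. Libraries with different numbers were not compared in this way, so these values cannot exclude a pairing.

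No log2 fold change of the 10 genes passed in the full fit, and some signs turned with the setting. With the block, mt-Nd6 in stimulated against sham stood at 0.11, and in stimulated against naive mt-Co2 at 0.020, mt-Atp6 at 0.0062 and mt-Nd5 at 0.0056. With total counts only, mt-Nd4 in stimulated against sham stood at 0.0003. Leaving out 1 library gave these ranges of log2 fold change for genes whose sign turned. In sham against naive they were -0.011 to 0.18 (mt-Nd2), -0.025 to 0.083 (mt-Co2), -0.027 to 0.12 (mt-Cyb) and -0.23 to 0.050 (mt-Nd6). In stimulated against sham they were -0.25 to 0.0069 (mt-Nd1), -0.21 to 0.043 (mt-Co2), -0.17 to 0.17 (mt-Nd4) and -0.16 to 0.14 (mt-Nd6). In stimulated against naive they were -0.10 to 0.16 (mt-Nd1), -0.17 to 0.056 (mt-Nd2), -0.12 to 0.050 (mt-Co1), -0.17 to 0.086 (mt-Co2), -0.17 to 0.068 (mt-Atp6), -0.14 to 0.015 (mt-Co3), -0.035 to 0.30 (mt-Nd4), -0.17 to 0.052 (mt-Nd5), -0.19 to 0.042 (mt-Cyb) and -0.19 to 0.040 (mt-Nd6).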
